A study of Mus musculus with 24 samples.

Results

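The comparison described here asks, gene by gene, whether cultured mouse muscle cells without the receptor kinase MuSK and wild-type muscle cells changed to a different extent in becoming myotubes. It used the 12 untreated arrays of a series of 24, chosen by their titles. The other 12 arrays, from cultures given BMP4 at 25 ng/ml for 8 hours, were not used. RNA was hybridised to Affymetrix arrays, and of the 35556 rows of the deposited table the 21789 probe sets assigned to 1 gene each, covering 19938 genes, were tested. The 4 groups of 3 arrays were untreated MuSK-/- myotubes, MuSK-/- myoblasts, wild-type H-2Kb-tsA58 myotubes and wild-type H-2Kb-tsA58 myoblasts. Myotubes had been kept for 3 days at 37 °C in 5% horse serum, while myoblasts grew at 33 °C in 20% fetal bovine serum with chicken embryo extract and 1 U of interferon-γ. Every stage difference is therefore also a difference in temperature, serum and interferon-γ, and these cannot be told apart. The labels give a serum deprivation for BMP4-treated myoblasts and do not say whether untreated myoblasts had one.

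Both genotypes are described as immortalised lines, and tsA58 is a temperature-sensitive viral T antigen placed under the interferon-inducible H-2Kb promoter. The labels name that transgene for the wild-type cells. They do not say whether the MuSK-/- cells carry it, which Musk exons were deleted, or that more than 1 line of each genotype was used, so genotype and cell line cannot be told apart. The arrays of a group are called biological replicates without saying what was repeated, so p-values reflect the spread of 3 arrays a group and that spread may be technical.

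Myoblasts that stop dividing switch on MyoD-family and MEF2 transcription factors, fuse into multinucleated myotubes and assemble sarcomeres, the contractile units. MuSK is a receptor tyrosine kinase that gathers acetylcholine receptors at the neuromuscular synapse and also binds bone morphogenetic proteins (BMPs), secreted factors that act through Smad proteins and Id genes and hold myoblasts back from differentiation.

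The quantity tested was the differentiation change in MuSK-/- cells (myotubes minus myoblasts) minus the same change in wild-type cells, called the interaction below, on the deposited log2 scale, where 1 unit is a doubling. A positive interaction means that the signal rose more, or fell less, in MuSK-/- cells. It equals the genotype difference in myotubes minus that in myoblasts (MuSK-/- minus wild-type each), so each called interaction was then assigned to the stage at which the genotypes stood apart. A difference was called at an adjusted p under 0.05 (limma, Benjamini-Hochberg over all 21789 probe sets).

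Musk itself (chr4:58285729-58377848, GRCm38.p6) was measured first, as a check on the labels. Its signal was 11.17, 11.24 and 11.24 in MuSK-/- myotubes, 10.93, 10.69 and 10.94 in MuSK-/- myoblasts, 12.72, 12.69 and 12.77 in wild-type myotubes, and 11.63, 11.50 and 11.58 in wild-type myoblasts. Both MuSK-/- groups lay below both wild-type groups without overlap. The signal rose in both genotypes, by 0.36 in MuSK-/- cells and 1.15 in wild-type cells, and the interaction was -0.79 ± 0.10 (SE, limma adjusted p = 4.98e-05). The genotype difference was -1.51 in myotubes and -0.72 in myoblasts. The sources used here do not say whether the probes lie inside the deleted part of the gene, so a remaining signal in MuSK-/- cells checks the labels only in part.

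An interaction was called for 6173 of the 21789 probe sets (28.3%), positive for 3254 (14.9%) and negative for 2919 (13.4%). It reached at least 1 log2 unit in 1144 probe sets (5.25%). Within the genotypes, 8934 probe sets (41.0%) changed on differentiation in MuSK-/- cells and 9906 (45.5%) in wild-type cells. Between genotypes, 8129 probe sets (37.3%) differed in myotubes, 4333 (19.9%) higher and 3796 (17.4%) lower in MuSK-/- cells. In myoblasts 6634 (30.4%) differed, 3179 (14.6%) higher and 3455 (15.9%) lower. The single arrays of the genotypes did not overlap in 10997 probe sets (50.5%) in myotubes and 8636 (39.6%) in myoblasts, the background for such statements on single genes below. The median spread within groups was an SD of 0.11, and array medians lay between 7.38 and 7.45.

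The myotube level alone made 2310 of the 6173 called interactions (37.4%), meaning that a genotype difference was called in myotubes and not in myoblasts. The myoblast level alone made 1504 (24.4%). In 641 the genotypes differed the same way at both stages and more in myotubes, and in 496 more in myoblasts. In 992 (16.1%) they differed in opposite directions, 526 higher in MuSK-/- myotubes but lower in MuSK-/- myoblasts and 466 the reverse. For 656 of those 992 the test of the sum of both differences did not say which stage differed more, while 195 differed more in myotubes and 141 more in myoblasts. The remaining 230 had no called genotype difference at either stage. The genes with opposite directions had a median interaction size of 0.91 log2, against 0.5 for either stage alone. That follows in part from how the class is defined, because differences of opposite sign add up in the interaction.

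**Figure D1:**
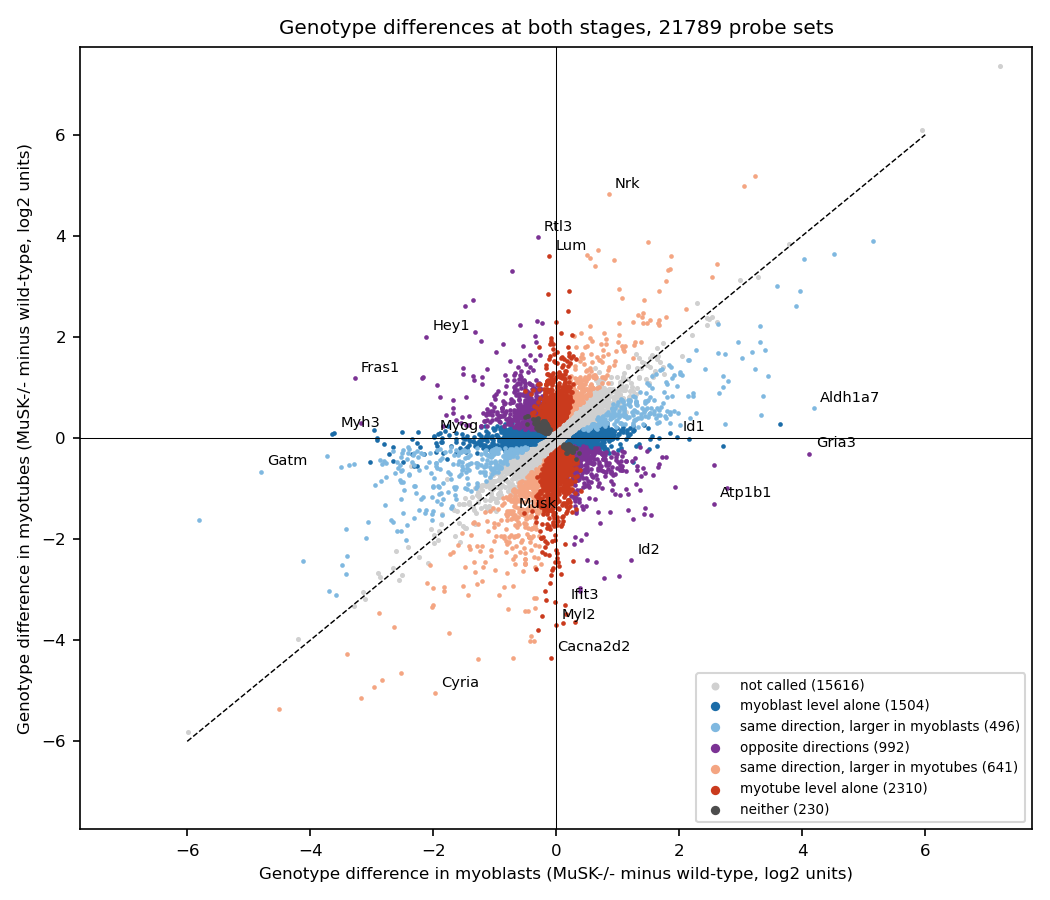
Genotype difference (MuSK-/- minus wild-type, log2 units) in myotubes on the vertical axis against myoblasts on the horizontal axis for 21789 probe sets, coloured by the stage that makes the called interaction. The 2310 probe sets set by the myotube level stand along the vertical axis, the 1504 set by the myoblast level along the horizontal axis, and probe sets without a called interaction lie along the dashed line of equal differences.

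In terms of direction, 1045 of the called probe sets rose in both genotypes, 589 of them more in MuSK-/- cells, and 1177 fell in both, 416 of them more in MuSK-/- cells. Opposite movement was called in both ways: 317 rose in MuSK-/- cells and fell in wild-type cells, and 415 fell in MuSK-/- cells and rose in wild-type cells.

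The contractile genes made the largest block of positive interactions among the gene lists examined, and the myoblast level made nearly all of them. Of 49 measured sarcomere genes, 39 had a positive interaction and 7 a negative one. Over all probe sets these shares were 14.9% and 13.4%, the background for the counts of every list below. Most lists lay above the 28.3% called in either direction over all probe sets, among them axon guidance (69.6%) and immediate early genes (67.9%). The mitochondrial respiratory chain (14.6%), Schwann and neural markers (25.0%) and endothelial markers (0.0%) lay below. The lists were chosen with earlier results known, so a share above the background alone does not set a list apart. The median interaction of the sarcomere genes was 1.67, against 0.05 over all probe sets. The median genotype difference of the list was -0.29 in myotubes and -1.99 in myoblasts, so the genotypes stood further apart as myoblasts than as myotubes. The sarcomere genes rose in both genotypes: 45 rose in MuSK-/- cells (as did 18.2% of all probe sets) and 48 in wild-type cells (as did 20.3%). Among the 39 positive interactions the myoblast level alone made 11, and 24 differed at both stages but more in myoblasts.

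Myh3 (chr11:67078273-67102291), the embryonic myosin heavy chain, had signals of 13.88, 13.87 and 13.93 in MuSK-/- myotubes, 8.95, 9.18 and 8.87 in MuSK-/- myoblasts, 13.79, 13.79 and 13.81 in wild-type myotubes, and 12.59, 12.70 and 12.54 in wild-type myoblasts. The myotubes of both genotypes lay within 0.2 log2 of each other, whereas the myoblasts stood more than 3 log2 apart. Its interaction was 3.71 ± 0.11 (SE, limma adjusted p = 5.84e-11), and the 95% interval of its myotube genotype difference was -0.07 to 0.26. Lmod2, which nucleates actin filaments in the sarcomere, had 11.57, 11.66 and 11.48 in MuSK-/- myotubes, 5.98, 6.24 and 6.43 in MuSK-/- myoblasts, 11.44, 11.55 and 11.48 in wild-type myotubes, and 9.81, 9.95 and 9.83 in wild-type myoblasts. The pattern was that of Myh3, with a low signal only in MuSK-/- myoblasts. Its interaction was 3.72 ± 0.14 (SE, limma adjusted p = 2.84e-10), with an interval of -0.14 to 0.29 for myotubes. Tnnc2, the calcium-binding troponin subunit of fast fibres, followed with 3.12 ± 0.12 (SE, limma adjusted p = 5.19e-10), a myotube difference of 0.16 and a myoblast difference of -2.96. Myoz2, a Z-disc protein that binds calcineurin, gave the same picture, being slightly higher in MuSK-/- myotubes (0.29) and far lower in MuSK-/- myoblasts (-3.17).

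Most of the positive sarcomere genes, 24 of 39, were lower in MuSK-/- cells at both stages and more so in myoblasts. In myotubes 32 of the 49 listed genes were called lower and 4 higher in MuSK-/- cells, against 17.4% and 19.9% of all probe sets. Actn2, the Z-disc actinin, had 13.21, 13.24 and 13.29 in MuSK-/- myotubes and 7.46, 7.74 and 7.66 in MuSK-/- myoblasts. In wild-type cells it had 13.58, 13.57 and 13.63 in myotubes and 11.34, 11.44 and 11.27 in myoblasts. The genotypes did not overlap at either stage, and the interaction was 3.38 ± 0.11 (SE, limma adjusted p = 8.12e-11). Acta1, skeletal alpha-actin, had an interaction of 2.12 ± 0.08 (SE, limma adjusted p = 4.11e-10), made of -0.29 in myotubes and -2.41 in myoblasts. The perinatal myosin gene Myh8 gave 2.13, the desmin gene Des 1.47 and the stretch-responsive Smpx 2.79, all called. Myh3, Myh4 and Myh8 lie in 1 cluster on chromosome 11 and are close paralogs, and signal shared between their probes was not tested.

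Not every contractile gene followed. The genes with a negative interaction included fibre-type genes of mature muscle, and there the myotube level made the difference. Myl2, the regulatory light chain of slow and cardiac muscle, had 7.42, 7.39 and 7.26 in MuSK-/- myotubes, 6.64, 6.47 and 6.31 in MuSK-/- myoblasts, 11.04, 11.02 and 11.12 in wild-type myotubes, and 6.52, 6.46 and 6.47 in wild-type myoblasts. Only wild-type myotubes carried a high signal, while MuSK-/- myotubes stayed within about 1 log2 of the myoblasts. The interaction was -3.69 ± 0.12 (SE, limma adjusted p = 7.34e-11), with a myotube difference of -3.70 and a myoblast interval of -0.18 to 0.17. Myh4 (chr11:67237812-67260447), the fastest adult myosin heavy chain, had 9.93, 10.03 and 9.92 in MuSK-/- myotubes against 12.08, 12.13 and 12.22 in wild-type myotubes. It rose in both genotypes, by 3.44 in MuSK-/- cells and 4.90 in wild-type cells, and its interaction was -1.46 ± 0.10 (SE, limma adjusted p = 6.45e-08). Xirp2, an actin-binding repeat protein, gave -1.59 and Mybpc2, fast myosin-binding protein C, -1.40, both with the larger genotype difference in myotubes.

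**Figure D2:**
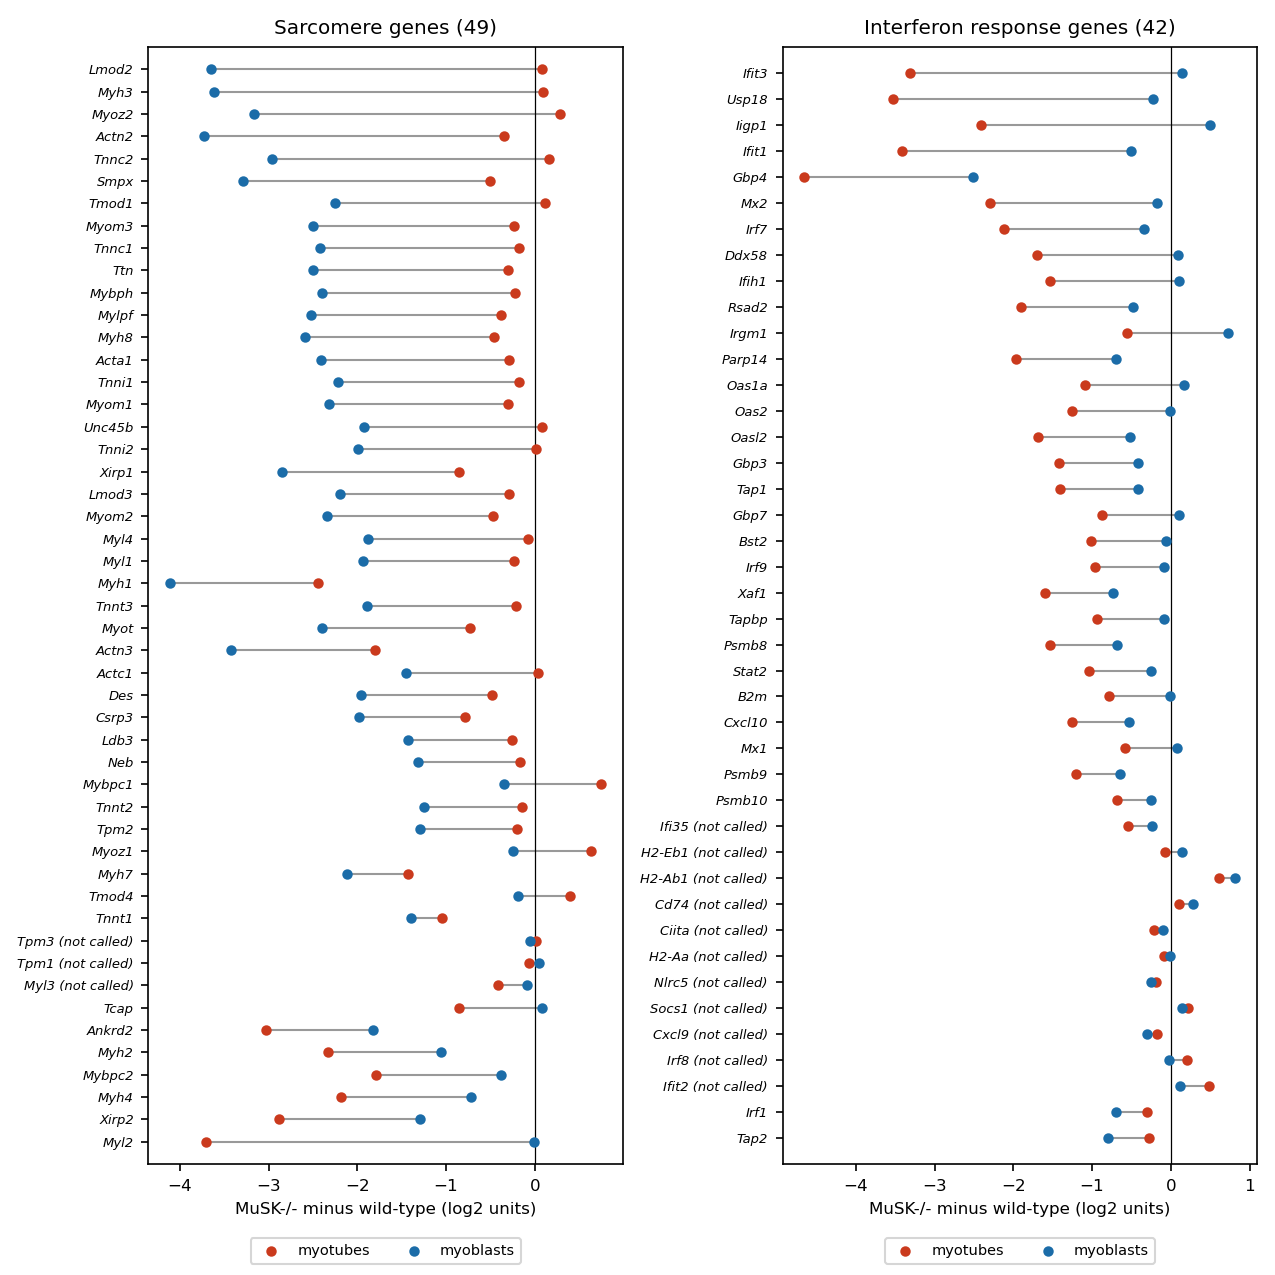
Genotype difference (MuSK-/- minus wild-type, log2 units) in myotubes and in myoblasts for 49 sarcomere genes (left) and 42 interferon response genes (right), ordered by interaction, with a line joining both stages of a gene. Most sarcomere genes have the myoblast point further left (list median -1.99) than the myotube point (list median -0.29), for example Actn2, Lmod2 and Myh3. Most interferon genes have the myoblast point near 0 and the myotube point to the left.

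Many sarcomere signals in myotubes were near the top of the scale. Of the 49 genes, 19 had a wild-type myotube mean of at least 13, where the highest group mean of any probe set was 14.77. Among the 17 sarcomere genes with a mean under 10 over the 12 arrays, 9 had a positive and 7 a negative interaction, with a median of 0.59. Under 11 there were 27 genes, 19 positive and 7 negative, with a median of 1.66. The part of array compression at high signal in the small myotube differences was not tested.

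Markers of muscle and of other cell types were then compared. The mean of 8 myotube markers (Myog, Ckm, Acta1, Myh3, Tnnt3, Mylpf, Actn2 and Ttn, 6 of them also in the sarcomere list and so no separate evidence) was 13.15 to 13.17 in MuSK-/- myotubes and 9.13 to 9.27 in MuSK-/- myoblasts. It was 13.38 to 13.44 in wild-type myotubes and 11.70 to 11.81 in wild-type myoblasts. The mean of 6 myoblast markers was 11.31 to 11.36 in MuSK-/- myotubes, 10.60 to 10.68 in MuSK-/- myoblasts, 11.43 to 11.50 in wild-type myotubes and 11.25 to 11.35 in wild-type myoblasts. In bulk RNA, fewer cells of a type and less RNA per cell cannot be told apart, so these values do not say whether some wild-type myoblasts had differentiated or all of them expressed contractile genes. Marker lists of endothelial cells, macrophages and adipocytes averaged 5.87 to 6.67 on every array, around the lower quartile of all group means, 6.33. The mean of 8 fibroblast markers was 9.60 to 9.73 in MuSK-/- myotubes, 9.10 to 9.13 in MuSK-/- myoblasts, 8.68 to 8.77 in wild-type myotubes and 8.34 to 8.46 in wild-type myoblasts. The mean of 5 smooth muscle markers was 9.67 to 9.79 in MuSK-/- myotubes, 9.85 to 9.89 in MuSK-/- myoblasts, 10.44 to 10.48 in wild-type myotubes and 10.99 to 11.09 in wild-type myoblasts. These markers were lower in MuSK-/- cells at both stages and by about 1 log2 in myoblasts, where most sarcomere genes were also lower. Of the 5, Tagln and Actg2 had a called interaction (both positive), while Acta2, Cnn1 and Myh11 had none. The part of cell composition in the interactions was not tested.

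The promoters of the sarcomere genes with a positive interaction are shown for the members with the largest interaction that hold the letters CAGCTG, an E-box of the kind bound by MyoD-family factors, in capitals. Sequences are RefSeq GRCm38.p6, 250 bases before to 50 bases after the transcription start, written 5′ to 3′ on the gene's strand.
Lmod2 (chr6:24597521-24597820, plus strand): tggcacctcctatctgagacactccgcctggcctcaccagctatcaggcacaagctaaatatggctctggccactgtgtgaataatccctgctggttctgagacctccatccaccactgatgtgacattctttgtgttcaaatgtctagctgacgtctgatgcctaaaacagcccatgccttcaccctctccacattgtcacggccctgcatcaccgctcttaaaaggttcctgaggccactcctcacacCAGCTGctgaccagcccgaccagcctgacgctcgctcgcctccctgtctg
Myoz2 (chr3:123034938-123035237, minus strand): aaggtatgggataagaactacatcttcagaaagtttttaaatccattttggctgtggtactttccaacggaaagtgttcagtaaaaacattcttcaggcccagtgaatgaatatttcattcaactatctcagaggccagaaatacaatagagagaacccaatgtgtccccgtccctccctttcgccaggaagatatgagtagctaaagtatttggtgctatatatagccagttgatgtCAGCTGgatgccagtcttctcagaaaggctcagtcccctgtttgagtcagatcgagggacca
CAGCTG, which reads the same on both strands, occurred in 12 of the 35 promoters of the 30 matched genes (34.3%), against 16.3% of all 32851 promoters in the table. It occurred in 3 of 33 promoters of the positive cell cycle genes (9.09%), 4 of 24 of the negative interferon response genes (16.7%) and 4 of 11 of the other interferon response genes (36.4%), so the sarcomere share was not the highest of these sets. A match is a description of letters and not of binding.

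Genes of calcium handling and excitation, which couple the membrane signal to contraction, moved like the sarcomere. Of 31 measured, 18 had a positive and 6 a negative interaction, with a median of 0.50, and the myoblast level alone made 11 of the 18. Casq2, a calcium-storage protein of the sarcoplasmic reticulum, had an interaction of 2.90 ± 0.15 (SE, limma adjusted p = 6.88e-09). Its myotube difference was -0.01 with a 95% interval of -0.24 to 0.23, and its myoblast difference was -2.91. The calcium channel subunit gene Cacna1s gave 2.01, the triadin gene Trdn 2.02 and the sarcalumenin gene Srl 2.43.

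The 6 negative members were mixed in stage. The myotube level alone made 2 of them, Pvalb and Kcna7, and 1 each was larger in myotubes, opposite in direction, larger in myoblasts and from the myoblast level alone. Cacna2d2, an auxiliary calcium channel subunit that is no member of that list, had 7.26, 7.26 and 7.23 in MuSK-/- myotubes, 6.75, 7.0 and 7.12 in MuSK-/- myoblasts, 11.54, 11.57 and 11.69 in wild-type myotubes, and 6.94, 7.20 and 7.0 in wild-type myoblasts. High signals appeared only in wild-type myotubes, about 4 log2 above all other arrays. The interaction was -4.25 ± 0.13 (SE, limma adjusted p = 7.34e-11), and the myoblast interval was -0.29 to 0.11. Pvalb, the calcium buffer of fast fibres, had 7.16, 7.12 and 7.02 in MuSK-/- myotubes and 10.09, 9.77 and 10.04 in wild-type myotubes, which did not overlap, with an interaction of -2.77 ± 0.15 (SE, limma adjusted p = 8.32e-09).

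Muscle energy genes gave 16 positive and 5 negative interactions among 29, with a median of 0.85. Pygm, muscle glycogen phosphorylase, had an interaction of 2.33 ± 0.10 (SE, limma adjusted p = 6.89e-10) from the myoblast level alone, with a genotype difference of -0.02 in myotubes and -2.35 in myoblasts. The phosphoglycerate mutase gene Pgam2 gave 2.31, the myoglobin gene Mb 2.01 and the creatine kinase gene Ckm 1.34. Ckmt2, the mitochondrial creatine kinase of sarcomeric muscle, was negative at -1.25 and set by the myotube level alone (-1.30). Of 15 genes listed for the dystrophin complex, which links the cytoskeleton to the matrix, 9 were positive and 3 negative. The list also holds Trim63, a ubiquitin ligase of muscle that is not part of the complex, which is 1 of the 9 and gave 1.70. Dmd itself had an interaction of -0.77 ± 0.16 (SE, limma adjusted p = 0.00257) from the myotube level alone. The 41 genes of the mitochondrial respiratory chain stayed below the background of 28.3%, with 6 called interactions (14.6%), each positive, a count that ran between 3 and 12 under the other settings that kept the threshold. It was 3 without MuSK-/- myoblast replicate 3 or wild-type myoblast replicate 1.

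Transcription factors of the myogenic programme stood between these groups. Of 22 measured, 10 had a positive and 2 a negative interaction. Myog, which drives terminal differentiation, had 12.37, 12.43 and 12.37 in MuSK-/- myotubes, 10.03, 10.00 and 9.84 in MuSK-/- myoblasts, 12.39, 12.31 and 12.35 in wild-type myotubes, and 11.91, 12.03 and 11.91 in wild-type myoblasts. MuSK-/- myoblasts lay about 2 log2 or more below every other group, and the myotubes of both genotypes overlapped. Its interaction was 2.02 ± 0.10 (SE, limma adjusted p = 2e-09), with a myotube interval of -0.11 to 0.18. Mef2c, a partner of the MyoD family, gave 1.84 ± 0.08 (SE, limma adjusted p = 1.64e-09) and was lower in MuSK-/- cells at both stages (-0.32 in myotubes, -2.16 in myoblasts).

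Earlier factors behaved differently. Myod1, the determination factor, was lower in MuSK-/- cells at both stages (-0.66 in myotubes, -1.24 in myoblasts), and its interaction was 0.57 ± 0.08 (SE, limma adjusted p = 0.000106). Myf5, which marks proliferating myoblasts, was higher in MuSK-/- cells at both stages (1.44 and 1.83). It fell in both genotypes, with changes of -1.76 in MuSK-/- cells and -1.36 in wild-type cells, and the interaction was -0.40 ± 0.11 (SE, limma adjusted p = 0.0135). Pax7, the satellite cell factor, gave 0.07 ± 0.13 (SE, limma adjusted p = 0.747), not called. Sox8, a Sox factor expressed in satellite cells, moved in opposite directions, rising by 1.62 in MuSK-/- cells and falling in wild-type cells (-1.74), with an interaction of 3.37 ± 0.09 (SE, limma adjusted p = 4.25e-11).

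Fusion genes were split, with 9 positive and 9 negative interactions among 26. Mymk, the membrane protein required for fusion, had 13.96, 13.89 and 13.95 in MuSK-/- myotubes and 11.91, 11.91 and 12.13 in MuSK-/- myoblasts. It had 14.17, 14.14 and 14.20 in wild-type myotubes and 13.44, 13.55 and 13.45 in wild-type myoblasts, so the myoblasts stood further apart than the myotubes. Its interaction was 1.26 ± 0.10 (SE, limma adjusted p = 4.11e-07). Adam12, a metalloprotease of fusing myoblasts, gave 2.17 with the genotypes differing in opposite directions. Vcam1, an adhesion molecule, gave -1.70 ± 0.11 (SE, limma adjusted p = 3.64e-08) and was lower in MuSK-/- myotubes (-0.64) but higher in MuSK-/- myoblasts (1.06).

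At the neuromuscular synapse, 8 of 24 genes had a positive and 7 a negative interaction. Erbb3, a neuregulin receptor, had 11.61, 11.75 and 11.68 in MuSK-/- myotubes, 7.59, 7.52 and 7.61 in MuSK-/- myoblasts, 11.69, 11.65 and 11.78 in wild-type myotubes, and 10.49, 10.53 and 10.43 in wild-type myoblasts. It was low in MuSK-/- myoblasts alone, and the myotubes of both genotypes overlapped. The interaction was 2.88 ± 0.09 (SE, limma adjusted p = 7.34e-11) and the myotube interval -0.17 to 0.11. The MuSK activator gene Dok7 gave 1.02 ± 0.11 (SE, limma adjusted p = 7.4e-06), also from the myoblast level alone. Rapsn, which anchors acetylcholine receptors, gave 0.58 from the myotube level alone.

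Among the 5 muscle acetylcholine receptor subunits, 2 had a positive interaction, 1 a negative one and 2 none called. Chrng, the fetal gamma subunit, rose by 1.58 in MuSK-/- cells and 1.67 in wild-type cells, with an interaction of -0.09 ± 0.09 (SE, limma adjusted p = 0.499), not called, and was lower in MuSK-/- cells at both stages (-0.82 and -0.73). Chrnd, the delta subunit, gave an uncalled -0.04 ± 0.09 (SE, limma adjusted p = 0.767). Chrna1, the alpha subunit, had a called interaction of 0.51 ± 0.12 (SE, limma adjusted p = 0.00442). Chrnb1, the beta subunit, gave 0.28 ± 0.08 (SE, limma adjusted p = 0.0169). Chrne, the adult epsilon subunit, had 6.83, 6.72 and 6.87 in MuSK-/- myotubes and 7.69, 8.00 and 8.05 in wild-type myotubes, without overlap, and an interaction of -1.16 ± 0.13 (SE, limma adjusted p = 1.46e-05) from the myotube level alone.

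**Figure D3:**
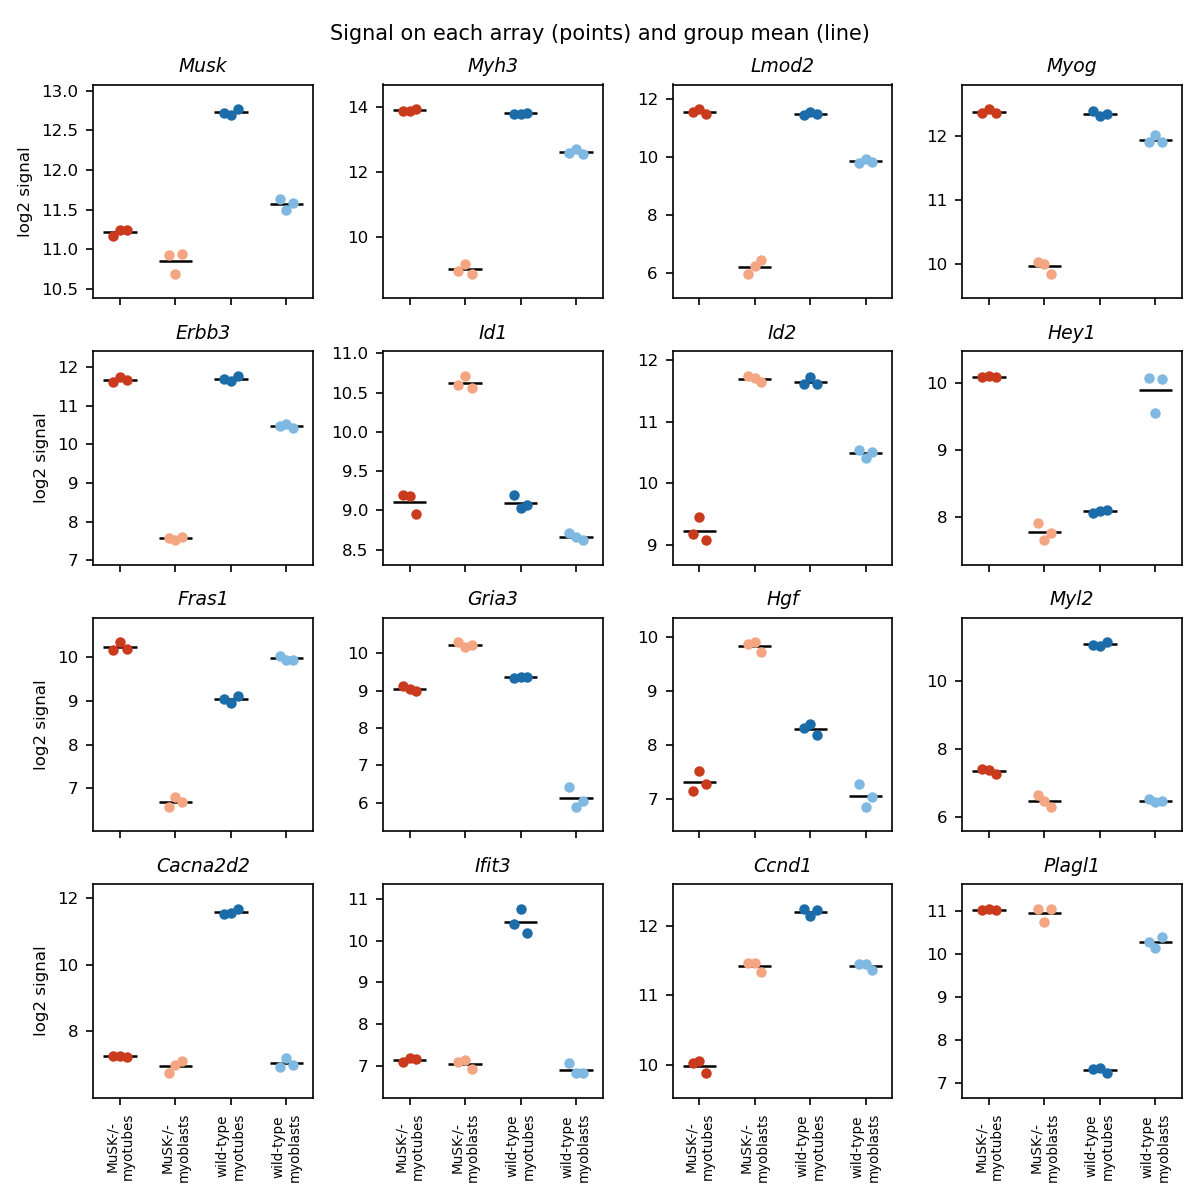
Signal (log2) of 16 genes on each of the 12 arrays, with a bar at the mean of the 3 arrays of a group; groups run in the order MuSK-/- myotubes, MuSK-/- myoblasts, wild-type myotubes, wild-type myoblasts. Myh3, Lmod2, Myog and Erbb3 are low only in MuSK-/- myoblasts, Id1 is high only there, and Myl2, Cacna2d2 and Ifit3 are high only in wild-type myotubes.

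Targets of BMP and Smad signalling tended to the other side. Of 31 measured, 6 had a positive and 16 a negative interaction, with a median of -0.31. The median genotype difference was -0.10 in myotubes and 0.26 in myoblasts. In MuSK-/- cells 20 of the 31 fell on differentiation (as did 22.8% of all probe sets), against 15 in wild-type cells (as did 25.2%). Of the 16 negative interactions 10 passed when a fold of at least 1.5 was required. The 16 were made by the myoblast level alone in 6 and by opposite directions in 5.

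Id1 (chr2:152736251-152737410), an inhibitor of MyoD-family factors and a direct BMP target, had 9.19, 9.18 and 8.95 in MuSK-/- myotubes, 10.59, 10.71 and 10.56 in MuSK-/- myoblasts, 9.20, 9.03 and 9.06 in wild-type myotubes, and 8.71, 8.66 and 8.62 in wild-type myoblasts. MuSK-/- myoblasts were above every other array by more than 1 log2, and the myotubes overlapped. The interaction was -1.95 ± 0.11 (SE, limma adjusted p = 1.52e-08), the myoblast difference 1.96 and the myotube interval -0.16 to 0.18. Id2 (chr12:25093799-25096092), of the same family, had 9.17, 9.44 and 9.07 in MuSK-/- myotubes, 11.74, 11.71 and 11.64 in MuSK-/- myoblasts, 11.61, 11.72 and 11.60 in wild-type myotubes, and 10.54, 10.40 and 10.50 in wild-type myoblasts. Here the genotypes differed at both stages and in opposite directions, lowest in MuSK-/- myotubes. Its interaction was -3.63 ± 0.12 (SE, limma adjusted p = 1.29e-10), from -2.42 in myotubes and 1.22 in myoblasts. Id3 had the same arrangement, with -0.52 and 1.66 and an interaction of -2.19 ± 0.14 (SE, limma adjusted p = 3.27e-08).

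Other BMP genes varied. The largest positive member of the target list was Hey1, described below. Grem1, a secreted BMP antagonist, fell in MuSK-/- cells (-2.10) and rose in wild-type cells (1.24), with an interaction of -3.35 ± 0.12 (SE, limma adjusted p = 1.46e-10). Fst, the follistatin gene, was positive at 1.55 ± 0.10 (SE, limma adjusted p = 6.67e-08) from the myoblast level alone. Of 45 ligands, receptors and antagonists of the BMP and TGF-beta families, 8 had a positive and 13 a negative interaction. Gdf6, a BMP-family ligand, had 7.95, 8.01 and 8.04 in MuSK-/- myotubes and 10.38, 10.41 and 10.34 in wild-type myotubes, which did not overlap. Its interaction was -2.08 ± 0.10 (SE, limma adjusted p = 1.64e-09). Bmp2 gave -1.66, lower in MuSK-/- cells at both stages and more so in myotubes, and the BMP co-receptor gene Hjv gave 1.61 from the myoblast level alone.

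Many of the largest interactions belonged to genes whose genotype difference changed sign between the stages, while others kept 1 sign or came from 1 stage. Fras1 (chr5:96373777-96784733), a basement membrane protein, had 10.16, 10.34 and 10.20 in MuSK-/- myotubes, 6.58, 6.80 and 6.70 in MuSK-/- myoblasts, 9.05, 8.96 and 9.12 in wild-type myotubes, and 10.04, 9.94 and 9.94 in wild-type myoblasts. It was low only in MuSK-/- myoblasts, rose by 3.54 in MuSK-/- cells and fell in wild-type cells (-0.93). The interaction was 4.47 ± 0.11 (SE, limma adjusted p = 2.79e-11). Hey1 (chr3:8663359-8667038), a transcriptional repressor downstream of Notch, had 10.10, 10.11 and 10.09 in MuSK-/- myotubes, 7.91, 7.66 and 7.76 in MuSK-/- myoblasts, 8.06, 8.10 and 8.11 in wild-type myotubes, and 10.08, 9.55 and 10.05 in wild-type myoblasts. MuSK-/- myotubes and wild-type myoblasts were high and the other groups about 2 log2 lower, so the gene ran in opposite directions in the genotypes. Its interaction was 4.12 ± 0.16 (SE, limma adjusted p = 4.76e-10).

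Further positive interactions of this kind came from Gjd4, a connexin, at 4.09, from Cmklr1, the chemerin receptor, at 4.03, and from the smoothelin-like gene Smtnl2 at 4.09. Rtl3, a retrotransposon-derived gene, gave 4.28 ± 0.14 (SE, limma adjusted p = 8.94e-11), of which the myotube difference was 3.97. Xlr, at 4.19, kept 1 sign, lower in MuSK-/- myotubes (-1.6) and far lower in MuSK-/- myoblasts (-5.8). Gatm, which opens creatine synthesis, averaged 12.03 ± 0.04 in MuSK-/- myotubes and 7.99 ± 0.20 in MuSK-/- myoblasts, 12.70 ± 0.02 in wild-type myotubes and 12.79 ± 0.09 in wild-type myoblasts (SD, n = 3 each). It was low only in MuSK-/- myoblasts. The interaction was 4.13 ± 0.12 (SE, limma adjusted p = 5.84e-11). Nrk, a protein kinase gene, was the reverse in stage, high only in MuSK-/- myotubes, with a myotube difference of 4.82 and an interaction of 3.97 ± 0.12 (SE, limma adjusted p = 5.84e-11).

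The most negative interaction was that of Gria3 (chrX:41400819-41678601), an AMPA-type glutamate receptor subunit, with 9.12, 9.04 and 8.98 in MuSK-/- myotubes, 10.29, 10.15 and 10.23 in MuSK-/- myoblasts, 9.33, 9.37 and 9.36 in wild-type myotubes, and 6.41, 5.89 and 6.03 in wild-type myoblasts. It was low only in wild-type myoblasts, fell in MuSK-/- cells (-1.18) and rose by 3.24 in wild-type cells. The interaction was -4.42 ± 0.15 (SE, limma adjusted p = 1.1e-10). Atp1b1, a sodium pump subunit, gave -3.86 ± 0.11 (SE, limma adjusted p = 4.25e-11), lower in MuSK-/- myotubes (-1.30) and higher in MuSK-/- myoblasts (2.56). Hgf, the hepatocyte growth factor that activates satellite cells, had 7.14, 7.5 and 7.28 in MuSK-/- myotubes, 9.87, 9.90 and 9.71 in MuSK-/- myoblasts, 8.32, 8.38 and 8.19 in wild-type myotubes, and 7.27, 6.85 and 7.03 in wild-type myoblasts. MuSK-/- myoblasts were highest by more than 1 log2, and MuSK-/- myotubes overlapped wild-type myoblasts. Its interaction was -3.76 ± 0.16 (SE, limma adjusted p = 7.18e-10).

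Among genes set by the myoblast level, the cornified envelope gene Sprr1a was high only in MuSK-/- myoblasts (10.75, 10.48 and 10.70, against 6.95, 7.06 and 7.0 in wild-type myoblasts). The groups did not overlap, and the interaction was -3.36 ± 0.15 (SE, limma adjusted p = 1.47e-09). The aldehyde dehydrogenase gene Aldh1a7 gave -3.60 and the sodium channel gene Scn9a -2.86 and, on another probe set, -2.45, both highest in MuSK-/- myoblasts. The secreted Wnt antagonists Sfrp1 and Sfrp2 gave -2.21 and -1.87 and were higher in MuSK-/- cells at both stages, more so in myoblasts.

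Interferon response genes were the clearest block set by the myotube level. Of 42 measured, 29 had a negative and 2 a positive interaction, against 13.4% and 14.9% of all probe sets. The median was -0.86. The median genotype difference was -1.02 in myotubes and -0.14 in myoblasts. On differentiation 11 of the 42 rose in MuSK-/- cells (as did 18.2% of all probe sets), against 30 in wild-type cells (as did 20.3%). Of the 29 negative interactions the myotube level alone made 13, and 14 differed at both stages but more in myotubes. The list holds antiviral genes, guanylate-binding proteins and antigen-processing genes. Interferon-γ was in the myoblast medium and is not listed for the myotube medium.

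The promoters of the 4 members with the largest negative interaction that hold GAAA, any 2 bases and GAAA again, as in the interferon-stimulated response element, are shown with the match in capitals. Both strands were searched, so a capital stretch that opens with TTTC is the same match on the other strand. Window, source and build are as above.
Ifit3 (chr19:34583279-34583578, plus strand): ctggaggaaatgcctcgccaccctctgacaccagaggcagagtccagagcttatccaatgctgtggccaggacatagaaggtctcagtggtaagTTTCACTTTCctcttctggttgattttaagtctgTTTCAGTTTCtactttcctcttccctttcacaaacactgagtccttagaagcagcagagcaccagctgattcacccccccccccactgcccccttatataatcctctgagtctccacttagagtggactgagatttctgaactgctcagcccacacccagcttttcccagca
Ifit1 (chr19:34640639-34640938, plus strand): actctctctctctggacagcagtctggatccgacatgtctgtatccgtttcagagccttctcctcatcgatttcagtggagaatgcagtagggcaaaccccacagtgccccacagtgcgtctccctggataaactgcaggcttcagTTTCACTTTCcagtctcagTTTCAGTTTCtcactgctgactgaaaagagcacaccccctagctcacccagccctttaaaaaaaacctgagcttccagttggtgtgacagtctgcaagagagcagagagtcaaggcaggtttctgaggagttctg
Ddx58 (chr4:40239776-40240075, minus strand): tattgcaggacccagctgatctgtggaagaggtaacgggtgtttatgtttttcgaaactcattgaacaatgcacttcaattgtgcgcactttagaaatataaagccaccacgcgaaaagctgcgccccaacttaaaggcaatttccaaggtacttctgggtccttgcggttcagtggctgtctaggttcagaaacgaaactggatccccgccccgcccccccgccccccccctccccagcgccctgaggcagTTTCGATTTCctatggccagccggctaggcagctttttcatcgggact
Ifih1 (chr2:62646206-62646505, minus strand): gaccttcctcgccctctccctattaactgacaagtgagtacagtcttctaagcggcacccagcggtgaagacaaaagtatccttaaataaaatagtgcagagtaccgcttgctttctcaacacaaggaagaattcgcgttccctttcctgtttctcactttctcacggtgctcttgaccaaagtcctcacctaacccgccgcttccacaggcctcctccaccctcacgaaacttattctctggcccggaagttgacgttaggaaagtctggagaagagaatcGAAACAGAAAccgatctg
These letters occurred in 13 of the 24 promoters of the 22 matched genes with a negative interaction (54.2%), in 1 of 11 promoters of the other members (9.09%) and in 3.44% of all promoters. The sarcomere promoters described above had 0 of 35. The members were listed as interferon response genes, so a high share against all promoters is no separate evidence on the interaction. The other members stand for 8 matched genes only. The first match began at position -156 in Ifit3 and -104 in Ifit1, counted from the transcription start.

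Ifit3 (chr19:34583119-34588982), an antiviral protein that binds foreign RNA together with Ifit1, had 7.09, 7.18 and 7.16 in MuSK-/- myotubes, 7.08, 7.14 and 6.93 in MuSK-/- myoblasts, 10.40, 10.77 and 10.19 in wild-type myotubes, and 7.08, 6.83 and 6.82 in wild-type myoblasts. Only wild-type myotubes were high, by about 3 log2, and all other arrays lay within 0.5 of each other. The interaction was -3.45 ± 0.17 (SE, limma adjusted p = 3.79e-09), with a myoblast interval of -0.12 to 0.40. Ifit1 had 7.55, 7.49 and 7.39 in MuSK-/- myotubes and 10.89, 11.24 and 10.54 in wild-type myotubes, an interaction of -2.91 ± 0.20 (SE, limma adjusted p = 7.21e-08) and a smaller difference in myoblasts (-0.50). Usp18, which removes ISG15 and dampens interferon signalling, gave -3.29 ± 0.13 (SE, limma adjusted p = 5.51e-10) from the myotube level alone (-3.52).

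The RNA sensor genes Ddx58 and Ifih1 had interactions of -1.78 and -1.64, both from the myotube level alone. Both positive members, Tap2 (0.52, adjusted p = 0.0122, limma), a peptide transporter, and Irf1 (0.39, adjusted p = 0.0266, limma), a transcription factor, fell in wild-type cells and were not called as changed in MuSK-/- cells. The Irf1 adjusted p ran to 0.0717 under other settings of the analysis. The MHC class II genes H2-Aa, H2-Ab1 and H2-Eb1 and their transactivator Ciita had no called interaction.

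Chemokines and cytokines had 6 positive and 12 negative interactions among 32. Ccl8, a monocyte attractant, had 5.32, 5.45 and 6.12 in MuSK-/- myotubes and 9.32, 9.24 and 9.24 in wild-type myotubes. It was high only in wild-type myotubes, without overlap, and its interaction was -3.94 ± 0.21 (SE, limma adjusted p = 8.89e-09). Ccl7 and Ccl2, its neighbours on chromosome 11, gave -3.05 and -1.74, both lower in MuSK-/- myotubes (-1.52 and -0.26) and higher in MuSK-/- myoblasts (1.53 and 1.48). Cxcl12, the ligand of the CXCR4 receptor of migrating muscle precursors, was highest in MuSK-/- myoblasts and gave -1.79 ± 0.10 (SE, limma adjusted p = 1.56e-08). Il15, a cytokine produced by muscle, was positive at 2.51 ± 0.11 (SE, limma adjusted p = 1.11e-09) through its high level in MuSK-/- myotubes.

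**Figure D4:**
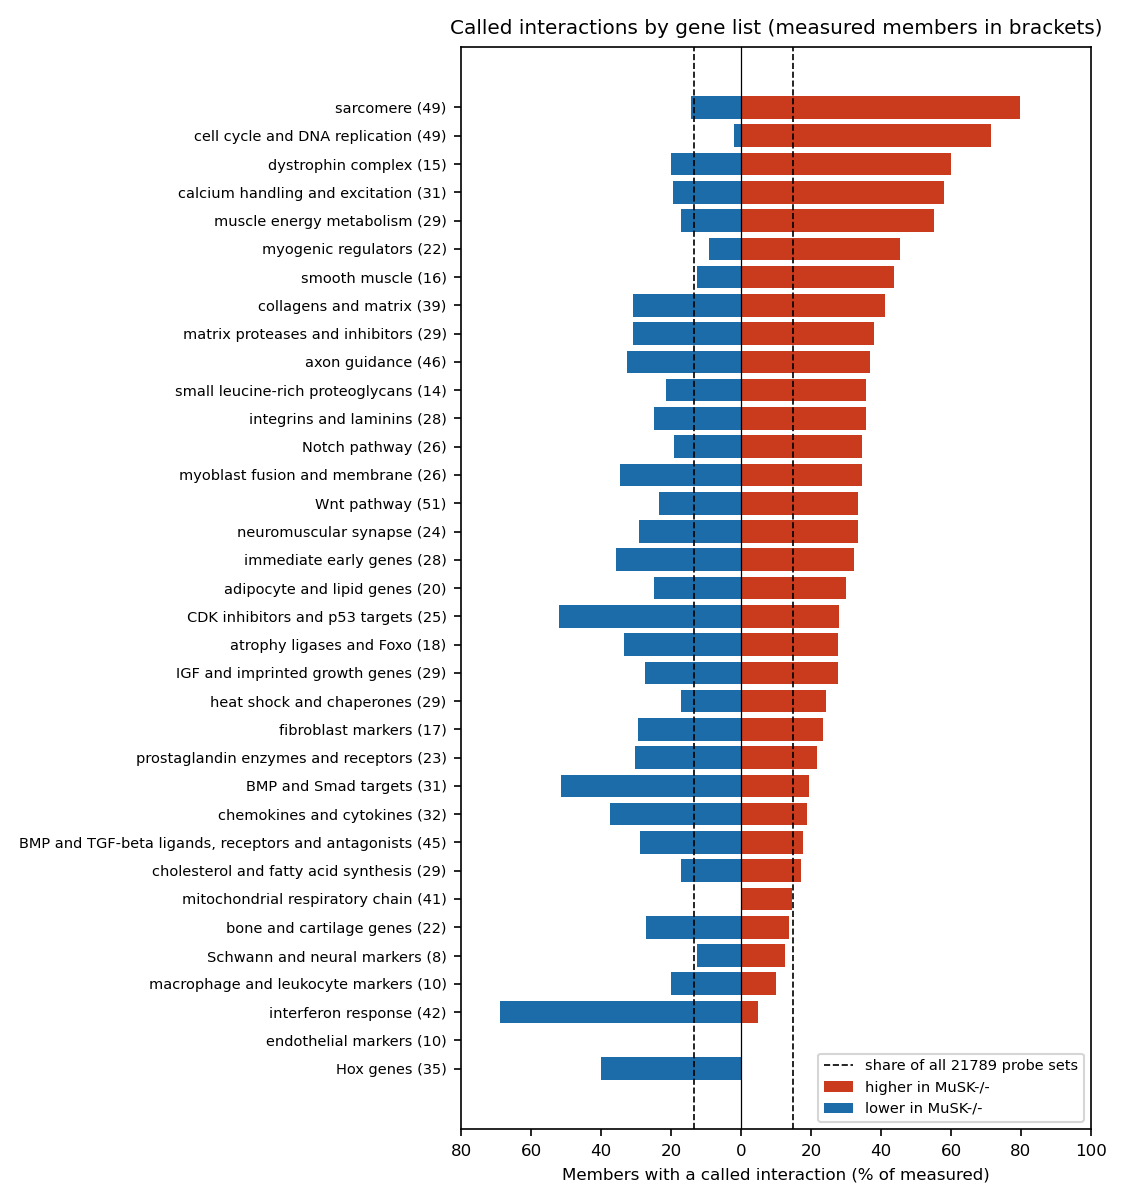
Share of each gene list's measured members with a called interaction, positive to the right and negative to the left. The legend words higher and lower in MuSK-/- refer to the differentiation change and not to the level of a gene. Dashed lines at 14.9% and 13.4% give the same shares over all 21789 probe sets. Sarcomere and cell cycle lists reach furthest to the right, and the interferon response furthest to the left.

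Cell cycle and DNA replication genes fell less in MuSK-/- cells. Of 49 measured, 44 fell in MuSK-/- cells (as did 22.8% of all probe sets) and 45 in wild-type cells (as did 25.2%). A positive interaction was called for 35 and a negative one for 1, against 14.9% and 13.4% of all probe sets. The median change was -1.15 in MuSK-/- cells and -1.98 in wild-type cells. The median genotype difference was 0.32 in myotubes and -0.33 in myoblasts. No single stage made the 35 positive interactions: 10 came from the myotube level alone, 8 from the myoblast level alone and 10 from opposite directions.

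Uhrf1, which maintains DNA methylation during replication, had 9.18, 9.53 and 9.14 in MuSK-/- myotubes, 10.34, 10.43 and 10.00 in MuSK-/- myoblasts, 8.49, 8.68 and 8.47 in wild-type myotubes, and 10.85, 11.15 and 10.90 in wild-type myoblasts. It fell in both genotypes and less in MuSK-/- cells, with an interaction of 1.45 ± 0.18 (SE, limma adjusted p = 2.94e-05). Cdk2, the kinase of the G1 to S transition, rose in MuSK-/- cells (0.56) and fell in wild-type cells (-1.07), with an interaction of 1.64 ± 0.10 (SE, limma adjusted p = 2.4e-08). The cyclin gene Ccne2 gave 1.40 and the transcription factor gene E2f2 1.46. Ccnd1, cyclin D1, was the single negative member called (1 more was called without MuSK-/- myotube replicate 2), with 10.03, 10.05 and 9.88 in MuSK-/- myotubes, 11.46, 11.46 and 11.34 in MuSK-/- myoblasts, 12.24, 12.14 and 12.22 in wild-type myotubes, and 11.45, 11.46 and 11.37 in wild-type myoblasts. The myoblasts overlapped and the myotubes stood about 2 log2 apart, lower in MuSK-/- myotubes. The interaction was -2.21 ± 0.10 (SE, limma adjusted p = 1.06e-09), with a myoblast interval of -0.15 to 0.14.

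T antigens bind p53 and the retinoblastoma protein, the brakes of the cycle. Cyclin-dependent kinase inhibitors and p53 targets gave 7 positive and 13 negative interactions among 25, with a median of -0.49. Mdm2, the p53 ubiquitin ligase and p53 target, had 10.74, 10.74 and 10.71 in MuSK-/- myotubes, 10.87, 10.66 and 10.78 in MuSK-/- myoblasts, 11.72, 11.88 and 11.68 in wild-type myotubes, and 10.84, 10.66 and 10.79 in wild-type myoblasts. Wild-type myotubes were about 1 log2 above the other groups, and the interaction was -1.03 ± 0.11 (SE, limma adjusted p = 6.49e-06) from the myotube level alone. The p53-induced genes Trp53inp1, Fas and Tnfrsf10b gave -1.46, -1.26 and -1.05. Pmaip1, which p53 also induces, went the other way, at 1.55 from the myoblast level alone. Cdkn1c, the imprinted inhibitor p57, was positive at 2.07 ± 0.13 (SE, limma adjusted p = 3.23e-08), rising in MuSK-/- cells and falling in wild-type cells.

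Growth factor genes of the IGF and imprinted group gave 8 positive and 8 negative interactions among 29. Plagl1, an imprinted zinc-finger factor, had 11.01, 11.04 and 11.02 in MuSK-/- myotubes, 11.04, 10.73 and 11.05 in MuSK-/- myoblasts, 7.32, 7.35 and 7.23 in wild-type myotubes, and 10.27, 10.14 and 10.40 in wild-type myoblasts. It was low only in wild-type myotubes, and its interaction was 3.05 ± 0.13 (SE, limma adjusted p = 6.89e-10). Igf1, a growth factor of muscle, had an interaction of 1.61 ± 0.11 (SE, limma adjusted p = 6.53e-08), also through the myotube level (1.44), and Igfbp2, an IGF-binding protein, gave 2.08. The imprinted Dlk1 and Nnat were negative, -1.35 and -1.40, through a higher level in MuSK-/- myoblasts.

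Collagens and matrix genes gave 16 positive and 12 negative interactions among 39. The positive ones were mostly made by the myotube level, alone in 4 and larger there in 9. Postn, a matrix protein of growing tissue, had 13.12, 13.11 and 13.14 in MuSK-/- myotubes and 9.31, 9.08 and 9.29 in MuSK-/- myoblasts. It had 10.88, 11.03 and 10.79 in wild-type myotubes and 8.88, 8.40 and 8.75 in wild-type myoblasts, rising in both genotypes and more in MuSK-/- cells, with an interaction of 1.67 ± 0.15 (SE, limma adjusted p = 1.85e-06). Col6a3, a chain of microfibrillar collagen, gave 1.5 ± 0.09 (SE, limma adjusted p = 2.48e-08) and Col15a1, a basement membrane collagen, 1.74 ± 0.13 (SE, limma adjusted p = 1.67e-07), both higher in MuSK-/- cells at both stages. Lum, a collagen-binding proteoglycan and 1 of the fibroblast markers above, was high only in MuSK-/- myotubes and gave 3.71 ± 0.15 (SE, limma adjusted p = 5.7e-10). The fibroblast marker mean, which includes Lum, was highest in the same group. Of the 8 fibroblast markers, 2 had a positive and 3 a negative interaction. The part of these markers in the results was not tested.

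Notch and Wnt genes included several with opposite directions. Of 26 Notch genes, 9 were positive and 5 negative, and 5 of the 9 had genotype differences of opposite sign. Jag1, a Notch ligand, rose in MuSK-/- cells (1.48) and fell in wild-type cells (-0.41), with an interaction of 1.89 ± 0.10 (SE, limma adjusted p = 4.54e-09), and Notch1 gave 1.14. The effector Hes1 was negative at -0.51, unlike Hey1. Of 51 Wnt genes, 17 were positive and 12 negative. The R-spondin receptor genes Lgr5 and Lgr6 parted, at 3.40 ± 0.10 (SE, limma adjusted p = 6.85e-11) and -2.39 ± 0.14 (SE, limma adjusted p = 1.55e-08).

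The Hox genes, which keep positional identity, were a small but one-sided group set by the myoblast level. Of 35 measured, 14 had a called interaction, each negative and 12 of them from the myoblast level alone, with a median over the list of -0.25. The changes were small, and 2 members passed when a fold of at least 1.5 was required. Without wild-type myotube replicate 3, 1 further member was called with a positive interaction. In MuSK-/- cells 18 of the 35 fell on differentiation (as did 22.8% of all probe sets), against 4 in wild-type cells (as did 25.2%). Hoxa3 (chr6:52169059-52213067) had 6.93, 7.04 and 6.98 in MuSK-/- myotubes, 7.54, 7.41 and 7.56 in MuSK-/- myoblasts, 6.96, 6.88 and 7.04 in wild-type myotubes, and 6.84, 6.78 and 6.73 in wild-type myoblasts. MuSK-/- myoblasts were higher than all other arrays, and the interaction was -0.69 ± 0.10 (SE, limma adjusted p = 7.72e-05). Hoxa10 (chr6:52231197-52240854) gave -0.63 ± 0.09 (SE, limma adjusted p = 0.000101) in the same way.

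**Figure D5:**
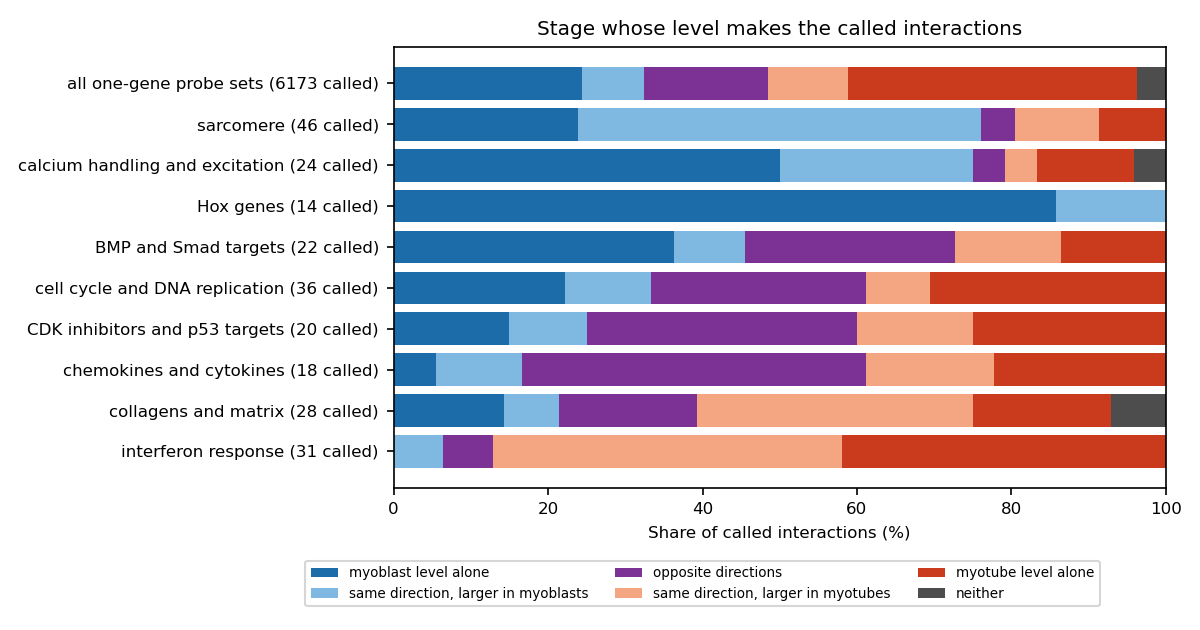
Share of the called interactions made by each stage, for all 6173 called probe sets and for 9 gene lists with their number of called members. The myoblast level takes the larger share for sarcomere, calcium handling and Hox genes, the myotube level for interferon response genes, and cell cycle genes are spread over both.

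Outside these lists of proteins, 298 probe sets of microRNA genes gave 24 positive and 12 negative interactions (12.1%), a share below the 28.3% of all probe sets. The following were chosen after their values were seen. Mature sequences are RefSeq GRCm38.p6 with the seed, bases 2 to 8, in capitals, while the probe sets read the gene and not the mature form.
miR-206-3p: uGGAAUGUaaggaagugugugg
miR-181a-5p: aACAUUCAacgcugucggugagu
miR-181b-5p: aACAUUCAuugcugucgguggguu
Mir206, a muscle microRNA gene, had an interaction of 0.70 ± 0.19 (SE, limma adjusted p = 0.0138) from the myoblast level alone. Mir181a-2 and Mir181b-2, neighbours on chromosome 2 whose 5p forms share a seed, had interactions of -0.70 ± 0.17 and -1.38 ± 0.15 (SE, limma adjusted p = 0.00686 and 9.73e-06). Both were higher in MuSK-/- cells at both stages and more so in myoblasts.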

How the data were processed

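RNA of 24 cultures was measured on Affymetrix arrays, and the 12 untreated ones were used. The authors deposited log2 values, made with Affymetrix Expression Console and Partek, per the submitters' processing notes. No source used here gives their versions or the normalization. Values ran between 2.5 and 15.03. Of 35556 rows, 21789 named 1 gene in the platform annotation, 1621 named several and 12146 none. Gene IDs matched RefSeq for 21698.

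One linear model with 4 group means was fitted per row with limma 3.58.1 (R 4.3.3, lmFit and eBayes, 8 residual degrees of freedom), and p-values were adjusted over all 21789. The fit was tested on simulated data. A called interaction was assigned to a stage by which genotype differences were called. Named genes were the 12 largest in each direction with a group mean of at least 7 and no overlap of single arrays at the stage of the larger genotype difference, up to 4 per list and 6 per stage class in each direction, and a fixed set of muscle, acetylcholine receptor and Id genes. Members, the 35 lists (958 of 1019 genes measured) and tests were chosen with earlier results of these data known. A gene with several probe sets was read in the lists from the brightest. The number of arrays limits the precision.

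Replicate numbers did not pair all 4 groups, by the correlations of deviations from the group means. Between the myoblast groups, same-number arrays correlated at 0.32, 0.438 and 0.228, and the other pairs at -0.364 to 0.157. There the numbers may pair the arrays, but the labels do not say what was repeated. Over the other pairs of groups, same-number correlations ran between -0.089 and 0.181. Alternatives covered all 24 arrays in the fit, moderation, dim probe sets, 1 probe set per gene, scaling, thresholds, a replicate block and leaving out each array.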

Additional observations from a re-analysis of the deposited data

Results flagged for a closer look

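The differentiation change differed between MuSK-/- and wild-type cells, by the test of that difference itself, in 6173 probe sets. Among these, 317 rose in MuSK-/- cells and fell in wild-type cells, and 415 fell in MuSK-/- cells and rose in wild-type cells. Among the genes with the largest interactions, these moved in opposite directions in the genotypes: Fras1 at 4.47, Rtl3 at 4.28, Hey1 at 4.12, Gjd4 and Smtnl2 at 4.09 each and Cmklr1 at 4.03 on the positive side. On the negative side were Gria3 at -4.42, the chemokine gene Ccl8 at -3.94, Atp1b1 at -3.86, the pseudogene BC023105 at -3.77, Hgf at -3.76, Adamtsl1 at -3.74 and Id2 at -3.63. In MuSK-/- myotubes the Ccl8 signal lay below the lower quartile of all group means, 6.33, so its fall there ended at a dim signal. Array signals for some of these genes stand in the report.

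Rows outside the gene-by-gene comparison also carried calls: 438 of the 12146 rows with no gene (3.61%) and 205 of the 1621 rows with several genes (12.6%).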

How the results depend on the processing

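The deposited values give no probe-level signal over background, so what dim probe sets can show is unknown. Fits that left out 1 array at a time are given further below. Otherwise, with the threshold kept, the number of called interactions ran between 5631 (1 probe set per gene, of 19938) and 7096 (block in myoblasts). It was 6608 with trended and robust moderation, 6367 with all 24 arrays in the fit, 6393 without dim probe sets, 6385 after quantile normalization, 5936 after centring on the median, where 47.4% were positive against 52.7%, and 6351 without the second replicate of each myoblast group, whose unnamed rows deviated most within its group. The replicate block over all 4 groups called 6576, of which 6075 were shared. A replicate block for the myoblast arrays alone, where the numbers may pair the arrays, was chosen after seeing the data. It called 7096 interactions, 6120 of them shared, and 7522 genotype differences in myoblasts, against 6634 without it. It changed the call of none of the named genes, and among the counts for all probe sets and gene lists it moved only the positive mitochondrial respiratory chain genes by over 1.5 times, to 12.

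Requiring a fold of at least 1.5 left 2878 interactions (1456 positive, 1422 negative), 2566 genotype differences in myotubes, 1989 in myoblasts, 3570 differentiation changes in MuSK-/- cells, 3989 in wild-type cells and 4652 sums of both genotype differences (8565 before). The myotube level alone then made 1124 interactions, the myoblast level alone 705, opposite directions 126, and both stages 149 (larger in myotubes) and 123 (larger in myoblasts), with 651 at neither stage, because fewer differences passed. An adjusted p under 0.01 left 574 opposite, 352 larger in myotubes and 309 larger in myoblasts.

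Leaving out 1 array at a time gave 5478 to 6265 interactions (2855 to 3270 positive, 2588 to 3018 negative), 7018 to 8605 genotype differences in myotubes, 5681 to 6603 in myoblasts, 8160 to 9310 changes in MuSK-/- cells, 9033 to 10017 in wild-type cells and 7943 to 8723 sums. By stage it gave 1946 to 2455 for the myotube level alone, 1282 to 1513 for the myoblast level alone, 830 to 1001 opposite, 484 to 609 larger in myotubes, 381 to 522 larger in myoblasts and 211 to 270 at neither stage. Between 4912 and 5184 interactions kept both the call and the stage.

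Chrnd, not called under any setting, changed sign to 0.009 after quantile normalization (adjusted p = 0.958, limma), and ran between -0.085 and 0.002 with 1 array left out; the cause was not tested. Irf1 lost its call with all 24 arrays and without any of 7 single arrays, at adjusted p between 0.0538 and 0.0717 (limma).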

Other observations

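Several gene groups not described above held called interactions in both directions, all tested in the same limma model, with the gene lists chosen with earlier results known. Of 46 axon guidance genes, which encode ligands and receptors that steer growing axons and migrating cells, 17 were positive and 15 negative (69.6%), with a median of -0.01. The ephrin receptor gene Epha3 had log2 values of 9.10, 9.22 and 8.96 in MuSK-/- myotubes and 6.08, 5.97 and 6.05 in MuSK-/- myoblasts, against 7.97, 8.12 and 8.04 in wild-type myotubes and 7.92, 7.91 and 8.08 in wild-type myoblasts. Its interaction was 2.98 ± 0.11 (SE, limma adjusted p = 2.94e-10). The MuSK-/- myotubes were the highest group and the MuSK-/- myoblasts the lowest, and the wild-type groups overlapped. Epha2 and Epha4, from the same receptor family, lay on the other side, at -1.84 ± 0.11 and -1.11 ± 0.13. The semaphorin gene Sema4d had log2 values of 7.94, 7.80 and 7.86 in MuSK-/- myotubes and 7.34, 7.28 and 7.39 in MuSK-/- myoblasts, against 10.96, 10.60 and 11.09 in wild-type myotubes and 7.45, 7.64 and 7.46 in wild-type myoblasts, an interaction of -2.83 ± 0.15 (SE, limma adjusted p = 6.37e-09). The wild-type myotubes were far above the other groups.

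Of 28 immediate early genes, which respond to growth factors and stress, 9 were positive and 10 negative (67.9%), with a median of 0.14. Nr4a1, an orphan nuclear receptor, gave 0.74 ± 0.09, while the transcription factor genes Egr3 and Fosl1 gave -1.66 ± 0.15 and -1.41 ± 0.18. Of 23 prostaglandin and leukotriene genes, 5 were positive and 7 negative (52.2%), with a median of 0.08. Alox5, 5-lipoxygenase, had log2 values of 7.53, 7.38 and 7.42 in MuSK-/- myotubes and 8.22, 8.34 and 8.28 in MuSK-/- myoblasts, against 12.56, 12.55 and 12.61 in wild-type myotubes and 11.49, 11.34 and 11.54 in wild-type myoblasts, an interaction of -1.96 ± 0.10 (SE, limma adjusted p = 4.21e-09). The MuSK-/- arrays lay below the wild-type arrays at both stages. Of 29 cholesterol and fatty acid synthesis genes, 5 were positive and 5 negative (34.5%), near the 28.3% of all probe sets. Their median differentiation change was -0.85 in MuSK-/- cells and -0.88 in wild-type cells.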
